A study of Mus musculus with 20 samples.

Results

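Chaperones and heat shock proteins are 42 of the 23992 genes in the deposited tables, grouped by name and role: 6 cytosolic Hsp70 and Hsp110 genes, 5 genes of cytosolic Hsp90 and its co-chaperones, the small heat shock protein gene Hspb1 with Bag3, 7 J-domain co-chaperones outside the endoplasmic reticulum (ER), 8 subunits of the TRiC chaperonin, 3 mitochondrial chaperones, 9 ER chaperones and folding enzymes and the 2 heat shock transcription factors Hsf1 and Hsf2. RNA-seq was performed on mouse regulatory T cells (Tregs), sorted by GFP from B6-Foxp3EGFP reporter mice, and on kit-isolated CD8+ T cells from mice described as C57BL/6J, both taken from spleen and lymph node. The sample labels name the strain C57BL/6N for every library, and the ages of the mice are not given. Cells were left unstimulated or received 200 nM IL-2 or 200 nM IL-2-REH for 90 min or 4 hr. The unstimulated libraries are of cells at time 0 and no culture without cytokine was taken at 90 min or 4 hr among the libraries used here, so in comparisons with unstimulated cells the cytokine and the time in culture cannot be told apart, whereas IL-2-REH and IL-2 were compared at the same time. IL-2-REH is IL-2 with 3 amino acid substitutions on the surface that meets the common gamma chain of the receptor, and it acts as a partial agonist. Each of the 5 Treg groups had 3 libraries, numbered replicates 1 to 3, and each of the 5 CD8+ groups had 1. Whether replicates came from separate animals is not stated, so p-values measure the spread between these libraries.

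Molecular chaperones bind unfolded or partly folded proteins and release them in cycles of ATP binding and hydrolysis. Hsp70 proteins take clients from J-domain co-chaperones and pass a subset to Hsp90, the ring-shaped TRiC chaperonin folds actin and tubulin, and separate sets serve mitochondria and the ER. A few genes, among them Hspa1a, Hspa1b, Hsph1, Dnajb1, Hspb1 and Bag3, are switched on within minutes by heat or protein damage through heat shock factor 1, while most of the others are expressed constantly in growing cells. In the ER, the unfolded protein response raises BiP (Hspa5), GRP94 (Hsp90b1), Dnajb9 and protein disulfide isomerases when folding demand increases. IL-2 signals through STAT5 in T cells and drives their growth and protein synthesis.

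Between 20201392 and 63903764 reads fell on genes in a library, with a median of 42327263. The identity of the cells matched the labels: Foxp3, which defines Tregs, was at 65.2 to 252 reads scaled by exon length and library size (RPKM) in Tregs and 0.482 to 0.999 in CD8+ T cells, and Cd8a was at 103 to 256 RPKM in CD8+ T cells and 0.0879 to 1.84 in Tregs. Libraries of the same group did not all lie close together. Of 10473 genes with a mean of at least 1 RPKM in Tregs, unstimulated replicate 1 lay more than 2-fold outside both other replicates for 1091 (10.4%), the third library with IL-2 at 4 hr for 813 (7.76%), and each of the other 13 Treg libraries for 28 to 289. Unstimulated replicate 3 did so for only 69 genes (0.659%), yet 8 of these were chaperone genes.

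Promoters of 5 members are shown, 4 because they hold a motif of the stress pathway that the member is known for, and that of Pdia4 because it was the member called at both times with IL-2 (below). The bases are those before the RefSeq start site on GRCm38.p6 (the same build as mm10), read 5′ to 3′ on the gene's strand, 1 base to 150 bases before the start for all but Hsp90b1, for which bases 71 to 220 are shown. Capitals mark a pair of heat shock element units facing each other (GAANNTTC or TTCNNGAA) in the first 3, the ER stress element (CCAAT and CCACG with 9 bases between, or its reverse complement) in Hsp90b1, and CCAAT boxes on either strand in Pdia4.
Hspa1a, chr17:34972157-34972306, minus strand: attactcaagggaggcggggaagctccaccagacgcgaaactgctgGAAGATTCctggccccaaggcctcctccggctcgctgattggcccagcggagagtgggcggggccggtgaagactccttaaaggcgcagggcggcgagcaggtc
Hspa1b, chr17:34959239-34959388, minus strand: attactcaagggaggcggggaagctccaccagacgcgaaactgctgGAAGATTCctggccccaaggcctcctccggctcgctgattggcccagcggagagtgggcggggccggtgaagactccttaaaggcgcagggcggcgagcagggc
Hspb1, chr5:135887769-135887918, plus strand: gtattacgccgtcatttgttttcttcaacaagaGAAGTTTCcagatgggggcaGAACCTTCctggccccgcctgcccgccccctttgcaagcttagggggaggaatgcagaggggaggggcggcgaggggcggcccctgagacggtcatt
Hsp90b1, chr10:86705515-86705664, minus strand: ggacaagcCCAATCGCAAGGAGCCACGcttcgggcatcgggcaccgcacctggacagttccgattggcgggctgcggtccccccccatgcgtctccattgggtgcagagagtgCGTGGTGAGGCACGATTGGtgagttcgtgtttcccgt
Pdia4, chr6:47813513-47813662, minus strand: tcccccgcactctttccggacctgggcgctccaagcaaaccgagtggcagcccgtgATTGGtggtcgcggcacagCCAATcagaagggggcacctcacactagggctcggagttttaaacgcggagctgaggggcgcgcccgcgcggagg

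The Hspa1a and Hspa1b promoters were identical at 149 of 150 bases. In the full windows of 300 bases around the start (250 before and 50 after), 35 of the 42 members matched a RefSeq promoter. A pair of heat shock element units was found in 14 of the 35, against 14.4% of the 10931 genes tested here that had a promoter: Hspa1a, Hspa1b, Hsph1, Chordc1, Hspb1, Bag3, Dnaja1, Dnajb4, Dnajb6, Cct2, Cct5, Cct6a, Hspd1 and Hspe1. The ER stress element, which contains a CCAAT box, was found in 5 of the 35, against 0.183% of those genes, and all 5 were ER members (Hspa5, Hsp90b1, Pdia6, Calr and Canx). A CCAAT box on either strand was found in 22 of the 35, against 42.8%. Pdia4 held 3 CCAAT boxes and no full ER stress element. The STAT5 motif TTCNNNGAA, a palindrome, was found in 2 of the 35, Dnajc7 and Cct5, against 8.45% of the genes. These matches describe letters in the windows and say nothing of binding.

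Levels spread widely among members. The constitutive Hsp70 gene Hspa8 and the constitutive Hsp90 gene Hsp90ab1 were the most abundant per length, with means over the 15 Treg libraries of 723 and 559 RPKM, followed by the ER chaperones Hspa5 (206 RPKM) and Calr, the gene of calreticulin (183 RPKM). Hspb1 (2.57 RPKM), Hsf2 (5.90 RPKM) and Bag3 (6.86 RPKM) were the lowest. All 42 members passed the filter on low counts. Together they took 1.05% to 2.31% of all reads on genes in Tregs (median 1.19%) and 1.02% to 1.27% in CD8+ T cells, and the highest share was that of unstimulated Treg replicate 3. The steadiest members over the 15 Treg libraries were Pdia6, an ER disulfide isomerase, and the TRiC subunit Cct6a, whose highest library was 1.295 and 1.35 times the lowest. The most variable were Hspa1a (213 times), Hspa1b (193 times) and Dnajb9 (17.6 times). Levels of some members are uncertain because a uniquely mapped read of 50 bases cannot be placed where a copy exists. Of 41 members with a matching GENCODE transcript, 14 shared more than 10% of their 50-base stretches with transcripts of other genes. These counts include genes that overlap at the same place, such as Tcp1, which shared 21.9% with Acat3. Such a stretch is not a copy elsewhere. Hspa8 shared 74.8%, Hspa1a 66.3%, Hspa1b 62.3%, Hspb1 60.4%, Hsp90aa1 58.5%, and Hspd1 and Hspe1 44.8% each, whereas Pdia4 and Bag3 shared none and Dnajb9 5.80%. Hspa1a, Dnajc7, Tcp1, Hspe1 and Hsp90b1 overlap other genes over 14.5% to 23.3% of their exon length, mostly on the opposite strand, and whether reads were counted by strand is not stated, so reads there cannot be told apart.

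Few chaperone genes were called with IL-2 in Tregs, and with IL-2-REH none passed the main test. Counts of calls are those of edgeR's quasi-likelihood test over 15009 genes with Benjamini-Hochberg adjusted p under 0.05. With IL-2 at 4 hr, 3 of 42 members were called, Pdia4 higher and Dnajb9 and Bag3 lower, against 2.27% of all genes tested. With IL-2 at 90 min, Pdia4 alone was called, higher, against 0.853% of all genes. With IL-2-REH none was called at 90 min (0.0933% of all genes) or at 4 hr (0.313%), though 6 and 11 members had an unadjusted p under 0.05 (1704 and 1998 of 15009 genes), and DESeq2 called 0 (0.753% of all genes) and 5 (3.76%). With IL-2 DESeq2 called 3 members at 90 min (3.68% of all genes) and 7 at 4 hr (6.64%). Same-numbered libraries deviated together, and a fit with the replicate number as a block called 5 members with IL-2 at 4 hr (6.92% of all genes) and 3 with IL-2-REH at 4 hr (3.03%). The block added Dnajb1 and Hspe1, both lower, with IL-2, and Pdia4, higher, and Hspe1 and Hspd1, lower, with IL-2-REH. At 4 hr the 42 members had a median log2 fold change of -0.11 (IL-2) and -0.16 (IL-2-REH), beside medians of all genes of -0.0017 and 0.014. The comparisons with unstimulated cells share the same 3 control libraries. Where members are said below not to overlap the unstimulated libraries, 12.7% (IL-2) and 9.97% (IL-2-REH) of all genes tested did not overlap them at 90 min, and 14.7% and 13.7% at 4 hr. In bulk RNA, fewer cells that express a gene and less RNA per cell cannot be told apart.

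Pdia4 encodes protein disulfide isomerase family member 4 (ERp72; mm10 chr6:47796141-47813512), which forms and rearranges disulfide bonds of secreted and membrane proteins in the ER. It was the one member called higher with IL-2 than in unstimulated Tregs at both times. In unstimulated Tregs it was at 17.8, 34.7 and 38.4 RPKM in replicates 1, 2 and 3. At 90 min it was at 88.2, 60.6 and 70.7 RPKM with IL-2 and at 59.5, 32.4 and 38.2 RPKM with IL-2-REH. At 4 hr it was at 138, 119 and 130.4 RPKM with IL-2 and at 74.5, 50.6 and 53.7 RPKM with IL-2-REH. All 6 libraries with IL-2 lay above all unstimulated ones, all 3 with IL-2 at 4 hr lay above every other library, and libraries with IL-2-REH overlapped the unstimulated ones at 90 min but not at 4 hr.

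**Figure D1:**
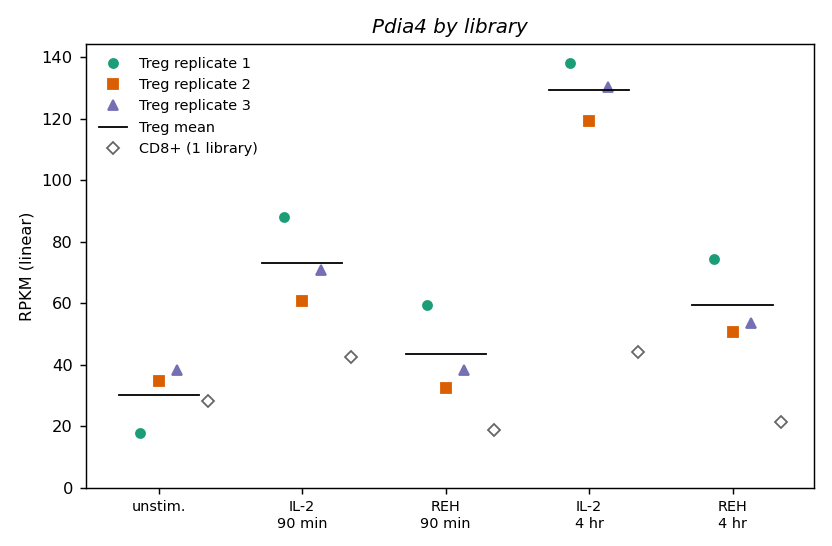
Pdia4 level in each library. The vertical axis is RPKM on a linear scale from 0, the horizontal axis the condition; filled symbols are the 3 Treg replicates, bars their mean, open diamonds the single CD8+ library. Tregs with IL-2 at 4 hr sit between 119 and 138 RPKM, above every other library, and the CD8+ libraries with IL-2 lie above those with IL-2-REH.

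The means were 30.3 ± 11.01 RPKM in unstimulated Tregs and 129 ± 9.51 RPKM with IL-2 at 4 hr (SD, n = 3 each). Relative to unstimulated cells, IL-2 gave a log2 fold change of 1.42 (95% interval 0.84 to 2.01, adjusted p = 0.0239 from edgeR) at 90 min and 2.197 (95% interval 1.60 to 2.79, adjusted p = 0.0013 from edgeR) at 4 hr. With IL-2-REH at 4 hr it was 1.01 (95% interval 0.43 to 1.58, adjusted p = 0.132 from edgeR), and with the replicate block 0.98 (95% interval 0.46 to 1.51, adjusted p = 0.0454 from edgeR). The call of Pdia4 at 90 min was lost without unstimulated replicate 2 (adjusted p = 0.121 from edgeR), without replicate 1 of IL-2 at 90 min (0.0631) and without replicate 3 of that group (0.122). The call at 4 hr held without any single Treg library. Without all libraries of replicate 2 or of replicate 3, which leaves 2 per group, the calls were lost at 4 hr (adjusted p = 0.105 and 0.11 from edgeR, log2 fold changes 2.33 and 2.397) and at 90 min (0.54 and 0.518).

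Pdia4 was also the member with the largest difference between the cytokines. IL-2-REH gave a lower level than IL-2 in all 3 same-numbered pairs at both times, and the groups did not overlap at either time. The log2 fold change of IL-2-REH over IL-2 was -0.77 (95% interval -1.35 to -0.20, adjusted p = 0.9999 from edgeR) at 90 min and -1.19 (95% interval -1.77 to -0.61, adjusted p = 0.295 from edgeR) at 4 hr. Neither passed the adjustment over 15009 genes with edgeR. DESeq2, which called 0.386% of all genes, called the 4 hr difference (log2 fold change -1.20, adjusted p = 0.00865) and the replicate block did not (adjusted p = 0.117 from edgeR). Groups that do not overlap occurred in 5.46% of all genes at 90 min and 7.79% at 4 hr for this comparison, and for 3 members at 90 min (Pdia4, Chordc1 and Dnajb6) and 2 at 4 hr (Pdia4 and Pdia3).

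The other ER members did not follow Pdia4. Dnajb9 (ERdj4), a J-domain partner of BiP (mm10 chr12:44205897-44210068) and a known target of the unfolded protein response, was lower at 4 hr with both cytokines. It was at 29.0, 25.6 and 51.3 RPKM in unstimulated Tregs. It stood at 19.0, 24.9 and 28.9 RPKM with IL-2 and 20.5, 24.8 and 25.8 RPKM with IL-2-REH at 90 min. By 4 hr it was at 10.1, 13.5 and 2.92 RPKM with IL-2 and 11.2, 14.2 and 10.2 RPKM with IL-2-REH. All 6 libraries at 4 hr lay below the 9 others, and the third library with IL-2 at 4 hr was the lowest of all. The log2 fold change against unstimulated cells was -1.996 (95% interval -2.92 to -1.07, adjusted p = 0.0297 from edgeR) with IL-2 and -1.60 (95% interval -2.51 to -0.69, adjusted p = 0.132 from edgeR) with IL-2-REH. The call with IL-2 was lost without unstimulated replicate 3 (adjusted p = 0.132 from edgeR), without the third library with IL-2 at 4 hr (0.0608) and without the first (0.0583), with log2 fold changes of -1.61 to -2.15.

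**Figure D2:**
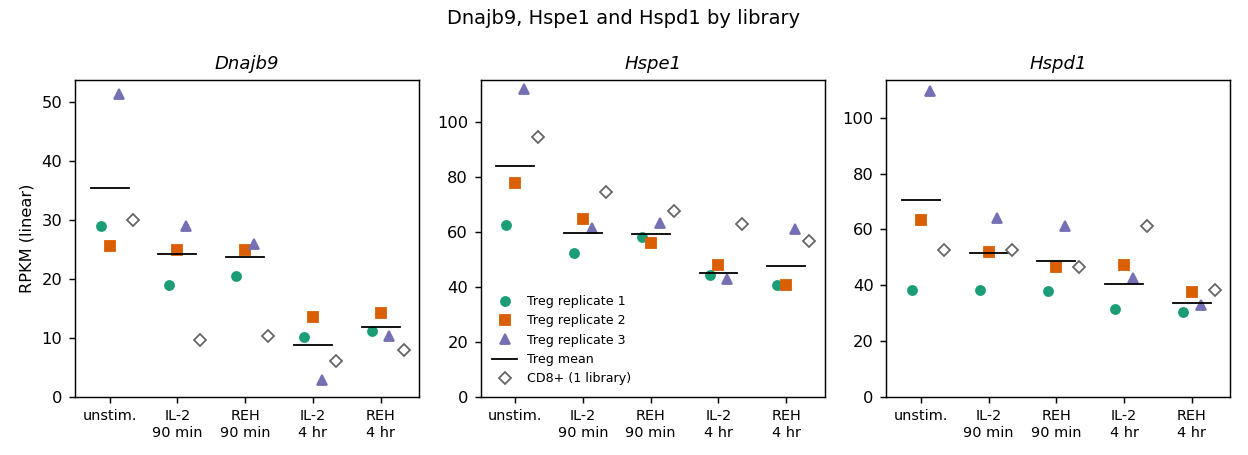
Dnajb9, Hspe1 and Hspd1 by library, RPKM on linear axes from 0 against condition, with filled symbols for Treg replicates 1 to 3, bars for their mean and open diamonds for the CD8+ library. Dnajb9 is lower in all 6 Treg libraries at 4 hr than in the other 9, and unstimulated replicate 3 is the highest for all 3 genes.

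Hspa5 encodes BiP, the main Hsp70 of the ER. It was at 214, 177 and 271 RPKM in unstimulated Tregs. It was at 184, 267 and 286 RPKM with IL-2 and 204, 268 and 310.0 RPKM with IL-2-REH at 90 min, and at 112, 169.9 and 175 RPKM and 111, 164.7 and 181 RPKM at 4 hr. Within each replicate number both 4 hr libraries were lower than both 90 min libraries, and the 4 hr and 90 min groups did not overlap for either cytokine, as was so for 17.1% (IL-2) and 19.1% (IL-2-REH) of all genes. The log2 fold change from 90 min to 4 hr was -0.79 (95% interval -1.50 to -0.08, adjusted p = 0.261 from edgeR) with IL-2 and -0.94 (95% interval -1.65 to -0.23, adjusted p = 0.268 from edgeR) with IL-2-REH, neither past the threshold. Of the other 6 ER members, Hsp90b1, Dnajb11 and Pdia6 moved least, with a highest Treg library 1.295 to 1.53 times the lowest, and Pdia3, Calr and Canx spanned 1.95 to 2.11 times. None of these 6 was called in any Treg comparison.

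The stress-inducible members varied most among unstimulated Tregs, before any cytokine was added. Hspa1a and Hspa1b, neighbouring genes for the inducible Hsp70 whose promoters are shown above, were at 1.87, 18.4 and 400.2 RPKM and 2.52, 26.3 and 487 RPKM in unstimulated replicates 1, 2 and 3. In the 12 stimulated libraries Hspa1a lay between 2.73 and 13.7 RPKM and Hspa1b between 3.04 and 16.5 RPKM. Unstimulated replicate 3 was thus the highest library by far, and unstimulated replicate 1 was lower than every stimulated library.

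**Figure D3:**
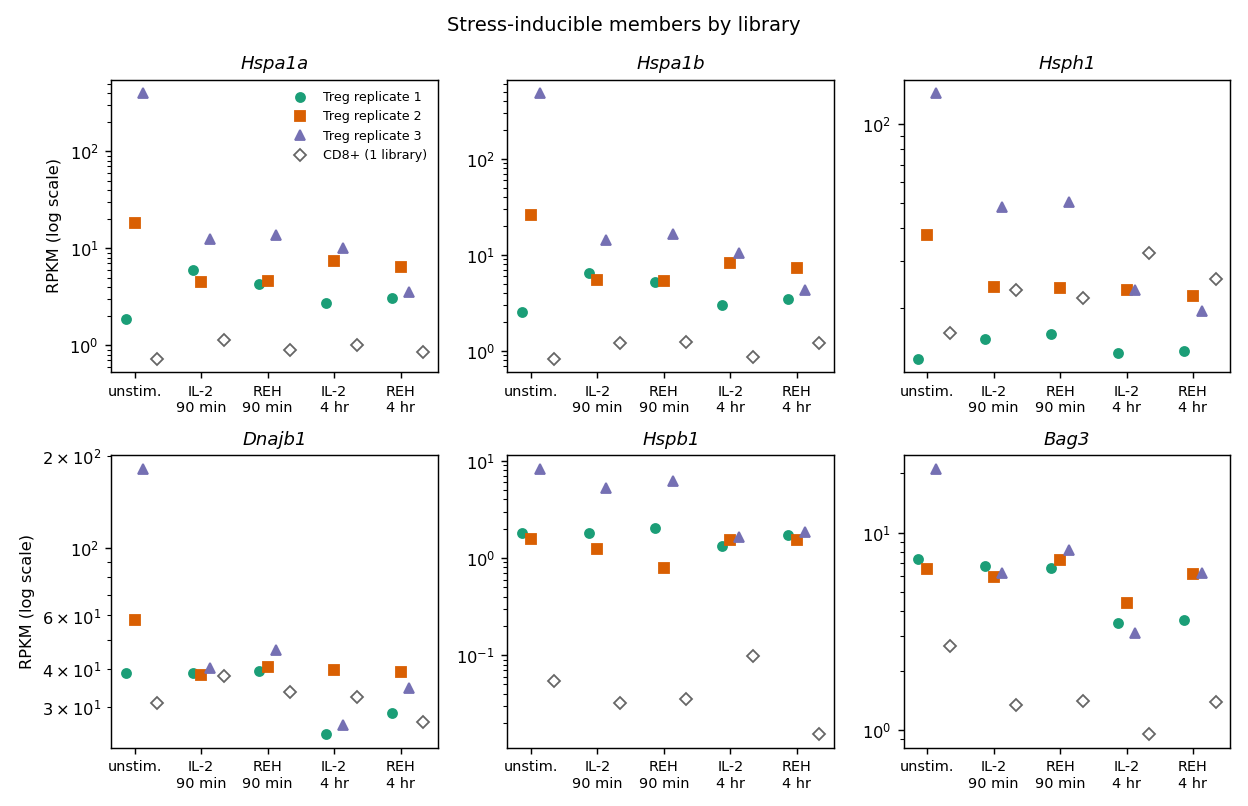
The 6 stress-inducible members by library, RPKM on log axes against condition, with filled symbols for the Treg replicates and open diamonds for the single CD8+ library. Unstimulated replicate 3 is the highest Treg library in all 6 panels, at 400.2 RPKM for Hspa1a against 1.87 and 18.4 RPKM in the other 2 unstimulated libraries.

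With IL-2, Hspa1a was at 6.05, 4.48 and 12.4 RPKM at 90 min and 2.73, 7.49 and 10.04 RPKM at 4 hr in replicates 1, 2 and 3. With IL-2-REH it was at 4.28, 4.62 and 13.7 RPKM and 3.07, 6.405 and 3.55 RPKM. Libraries of the cytokines overlapped at both times. The log2 fold change with IL-2 at 4 hr was -4.32 (95% interval -7.21 to -1.42, adjusted p = 0.119 from edgeR) for Hspa1a and -4.52 (95% interval -7.39 to -1.65, adjusted p = 0.1 from edgeR) for Hspa1b. Neither was called. Without unstimulated replicate 1 both were called, with -4.90 (adjusted p = 0.0139 from edgeR) and -5.10 (0.0105), and without unstimulated replicate 3 neither was, with -0.35 and -0.77 (adjusted p = 0.922 and 0.79).

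Hsph1, the inducible Hsp110 that recharges Hsp70 with ATP, was at 12.8, 37.8 and 131 RPKM in unstimulated Tregs. It was at 15.2, 24.0 and 48.3 RPKM with IL-2 and 15.9, 23.7 and 50.4 RPKM with IL-2-REH at 90 min, and at 13.4, 23.3 and 23.2 RPKM and 13.7, 22.1 and 19.4 RPKM at 4 hr. Replicate 1 was the lowest and replicate 3 the highest in all groups but those at 4 hr, in which replicate 2 was the highest. Its log2 fold change with IL-2 at 4 hr was -1.53 (95% interval -3.06 to 0.01, adjusted p = 0.285 from edgeR). Hspa8, the constitutive Hsp70, was at 652, 729 and 1269 RPKM in unstimulated Tregs and at 472, 743 and 524 RPKM with IL-2 and 506, 686 and 738 RPKM with IL-2-REH at 4 hr, and its 90 min libraries lay between 613 and 916 RPKM. Hspa4 and Hspa4l are Hsp110 relatives. Hspa4l was higher at 90 min with IL-2-REH, at 12.3, 19.4 and 22.9 RPKM, than in unstimulated cells, at 11.9, 7.80 and 7.13 RPKM, without overlap, and the log2 fold change of 1.17 (95% interval 0.21 to 2.13, adjusted p = 0.4 from edgeR) was not called.

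Bag3 (mm10 chr7:128523583-128546981), a co-chaperone that links Hsp70 to autophagy, was at 7.33, 6.58 and 21.1 RPKM in unstimulated Tregs. It was at 6.75, 5.94 and 6.21 RPKM with IL-2 and 6.64, 7.31 and 8.18 RPKM with IL-2-REH at 90 min. At 4 hr it was at 3.49, 4.38 and 3.12 RPKM with IL-2 and 3.59, 6.16 and 6.22 RPKM with IL-2-REH. Libraries with IL-2 at 4 hr did not overlap the unstimulated ones or those with IL-2 at 90 min. The log2 fold change with IL-2 at 4 hr was -1.63 (95% interval -2.47 to -0.79, adjusted p = 0.0447 from edgeR), and with IL-2-REH -1.15 (95% interval -1.98 to -0.33, adjusted p = 0.205 from edgeR). The call of Bag3 held without unstimulated replicate 1, unstimulated replicate 2 or replicate 1 of IL-2-REH at 4 hr, and was lost without any one of the other 12 Treg libraries, with adjusted p from 0.0516 to 0.218 from edgeR. The highest of these came without unstimulated replicate 3, when the log2 fold change was -0.87. Hspb1, the gene of the small heat shock protein Hsp27, was low throughout, at 1.80, 1.58 and 8.27 RPKM in unstimulated Tregs, 1.82, 1.22 and 5.23 RPKM with IL-2 and 2.04, 0.794 and 6.18 RPKM with IL-2-REH at 90 min. At 4 hr its 6 libraries lay between 1.31 and 1.83 RPKM. Replicate 3 was the highest library of Hspb1 in every group.

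Unstimulated replicate 3 stood more than 2-fold above both other unstimulated libraries for Hspa1a, Hspa1b, Hsph1, Hsp90aa1, Hspb1, Bag3, Dnajb1 and Dnajb4. Other values moved with this library. The summed level of 8 immediate early genes was 1130, 1153 and 1959 RPKM in unstimulated replicates 1, 2 and 3. It was 323 to 1085 RPKM in the 12 stimulated libraries. All 8 were highest in replicate 3 of the unstimulated libraries, but not all rose from replicate 1 to 2. Jun was at 32.5, 132 and 312 RPKM, Fosb at 78.9, 22.1 and 97.9 RPKM and Atf3 at 12.1, 1.94 and 12.2 RPKM. The summed level of 3 erythroid markers was 4.13, 8.08 and 130.5 RPKM in unstimulated replicates 1, 2 and 3, and 75.6 to 111 RPKM in the other replicate 3 libraries against 2.88 to 11.2 RPKM in the other replicates. That of 4 B cell markers was 2.36, 7.78 and 16.0 RPKM, and no marker of these lists was at 0. Their part in the chaperone levels was not tested.

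All 5 cytosolic Hsp90 members were lowest in replicate 1 and highest in replicate 3 of the unstimulated Tregs. Hsp90aa1, the inducible Hsp90 gene, was at 134, 152 and 385 RPKM in unstimulated Tregs. It was at 138, 167.5 and 236 RPKM with IL-2 and 146, 161.9 and 236 RPKM with IL-2-REH at 90 min, and at 94.3, 152 and 117 RPKM and 94.5, 139 and 185 RPKM at 4 hr. Hsp90ab1 was at 483, 520.4 and 909 RPKM in unstimulated Tregs, at 319, 524 and 603 RPKM with IL-2 and at 321, 493 and 564 RPKM with IL-2-REH at 4 hr. In both genes replicate 3 was the highest at 90 min and in unstimulated cells. Ahsa1, an activator of the Hsp90 ATPase, was at 36.2, 55.2 and 70.1 RPKM in unstimulated Tregs and between 32.5 and 52.9 RPKM in stimulated ones. Chordc1, a co-chaperone of Hsp90, was at 16.8, 34.3 and 43.1 RPKM in unstimulated Tregs, and its stimulated libraries lay between 15.1 and 24.9 RPKM. Stip1 (Hop), which joins Hsp70 to Hsp90, spanned 31.8 to 70.9 RPKM over the 15 libraries. None of the 5 was called in any comparison with all libraries.

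J-domain co-chaperones outside the ER deliver clients to Hsp70 and trigger its ATPase. Dnajb1 (Hsp40), the heat-inducible one, was at 38.9, 58.1 and 182 RPKM in unstimulated Tregs. It was at 39.0, 38.1 and 40.4 RPKM with IL-2 and 39.4, 40.5 and 46.3 RPKM with IL-2-REH at 90 min, and at 24.4, 39.7 and 26.3 RPKM and 28.8, 39.2 and 34.6 RPKM at 4 hr. The 6 libraries at 90 min lay within 38.1 to 46.3 RPKM, a narrower range than that of the 3 unstimulated ones. Its log2 fold change with IL-2 at 4 hr was -1.58 (95% interval -2.50 to -0.67, adjusted p = 0.0721 from edgeR), and the replicate block called it with -1.39 (95% interval -2.14 to -0.64, adjusted p = 0.0307 from edgeR). Dnaja1 was at 49.6, 54.1 and 105 RPKM in unstimulated Tregs and at 33.8, 47.0 and 37.8 RPKM with IL-2 and 37.1, 47.8 and 46.4 RPKM with IL-2-REH at 4 hr, lower without overlap, and was not called (adjusted p = 0.189 with IL-2 from edgeR). Dnaja2 was at 48.9, 48.4 and 48.8 RPKM with IL-2 at 90 min and 35.0, 43.7 and 27.0 RPKM at 4 hr. Dnajc7, the most abundant member of the group, was at 39.9, 59.5 and 59.9 RPKM in unstimulated Tregs and at 50.6, 57.3 and 67.9 RPKM with IL-2 and 56.6, 58.3 and 76.3 RPKM with IL-2-REH at 4 hr, and it was not called.

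TRiC subunits had the narrowest intervals of the 8 roles, with a median half-width of 0.39 on the log2 scale for IL-2 at 4 hr. Over 15 Treg libraries Cct5, the most abundant, lay between 87.8 and 127 RPKM, and no subunit was called in any comparison, with all 8 having unadjusted p above 0.05 throughout. Their log2 fold changes against unstimulated cells at 4 hr ran from -0.19 (Cct2) to 0.28 (Cct7) with IL-2 and from -0.26 (Cct2) to 0.091 (Cct4) with IL-2-REH, and all 8 intervals lay within -1 and 1. The third library with IL-2 at 4 hr stood apart for some subunits. In it Cct4 was at 57.8 RPKM, against 78.0 and 101 RPKM in the other 2 of the group, and Cct7 at 86.2 RPKM, against 41.8 and 55.2 RPKM. The cause was not tested. Cct2 was at 100.3, 108 and 116 RPKM in unstimulated Tregs, 76.5, 101 and 93.4 RPKM with IL-2 and 88.0, 96.0 and 86.7 RPKM with IL-2-REH at 4 hr.

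Among mitochondrial chaperones, the GroEL and GroES partners Hspd1 (Hsp60) and Hspe1 (Hsp10), which lie head to head on chromosome 1, were at or near their lowest levels at 4 hr. Hspe1 was at 62.7, 77.9 and 112 RPKM in unstimulated Tregs. It was at 52.3, 64.9 and 61.4 RPKM with IL-2 and 58.3, 56.1 and 63.2 RPKM with IL-2-REH at 90 min, and at 44.3, 47.9 and 43.0 RPKM and 40.8, 40.8 and 61.0 RPKM at 4 hr. All 6 libraries at 4 hr lay below the unstimulated ones. Its log2 fold change with the replicate block was -0.79 (95% interval -1.19 to -0.38, adjusted p = 0.0245 from edgeR) with IL-2 and -0.81 (95% interval -1.21 to -0.40, adjusted p = 0.0353 from edgeR) with IL-2-REH at 4 hr. Without the block the values were -0.83 (adjusted p = 0.113 from edgeR) and -0.81 (0.185), not called. Hspd1 was at 38.1, 63.3 and 109.7 RPKM in unstimulated Tregs and at 38.3, 52.1 and 63.9 RPKM with IL-2 and 37.8, 46.6 and 61.2 RPKM with IL-2-REH at 90 min. At 4 hr it was at 31.5, 47.3 and 42.7 RPKM with IL-2 and 30.5, 37.5 and 32.9 RPKM with IL-2-REH. Only IL-2-REH at 4 hr was free of overlap with unstimulated cells, and its log2 fold change was -1.06 (95% interval -1.84 to -0.28, adjusted p = 0.217 from edgeR) without and -0.93 (95% interval -1.41 to -0.46, adjusted p = 0.0398 from edgeR) with the replicate block. Hspa9 (mortalin), the mitochondrial Hsp70, was at 47.5, 39.1 and 44.9 RPKM in unstimulated Tregs and between 35.8 and 59.98 RPKM in all stimulated ones. It was not called.

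Hsf1, the master activator of the heat shock response, was at 19.99, 22.3 and 17.1 RPKM in unstimulated Tregs and between 12.9 and 26.4 RPKM over the 15 libraries. Hsf2 was at 6.24, 4.53 and 4.48 RPKM in unstimulated Tregs, and with IL-2 at 4 hr it was at 4.78, 7.63 and 2.39 RPKM. Neither was called, and the unstimulated library with the highest Hspa1a, replicate 3, had the lowest Hsf1 of the 3 and, by a narrow margin, the lowest Hsf2.

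Leaving out unstimulated replicate 1, the library farthest from its group over all genes, raised the counts. Of 42 members, 7 were then called with IL-2 at 90 min (12.9% of all genes) and 7 with IL-2-REH at 90 min (12.1%), and at 4 hr the counts were 8 (8.87%) for IL-2 and 5 (6.93%) for IL-2-REH. At 90 min, Hspa4, Dnaja2 and Dnajb6 were then higher with both cytokines, with log2 fold changes from 0.63 to 1.003, and Hspa1a, Hspa1b and Dnajb1 lower with both. At 4 hr, Hspa1a, Hspa1b, Dnajb1 and Chordc1 were lower with both. These calls rest on unstimulated replicates 2 and 3 alone.

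IL-2-REH and IL-2 were compared at the same dose and times, in 42 members at 2 times. No member was called at 90 min (0.0133% of all genes) or at 4 hr (0.0267%), and 1 member, Pdia4, had an unadjusted p under 0.05 at each time with edgeR. The test of whether the difference changed from 90 min to 4 hr also called none (0% of all genes), with 0 members at an unadjusted p under 0.05 and none called by DESeq2. At 90 min, the 95% intervals of 33 of 42 members lay within log2 fold changes of -1 and 1, and at 4 hr those of 28 did. These intervals are from the main fit, which did not use the replicate number. The intervals of the rest reached past a 2-fold difference, among them Hspa1a, with -0.74 (95% interval -3.29 to 1.82, adjusted p = 0.9999 from edgeR) at 4 hr. Bag3 and Dnajb9 were higher with IL-2-REH than with IL-2 at 4 hr in all 3 same-numbered pairs, by log2 fold changes of 0.48 (95% interval -0.34 to 1.302, adjusted p = 0.9999 from edgeR) and 0.40 (95% interval -0.50 to 1.29, adjusted p = 0.9999 from edgeR), not called. In all, 11 of 42 members and 3119 of 10473 expressed genes were higher in all 3 pairs of that comparison.

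**Figure D4:**
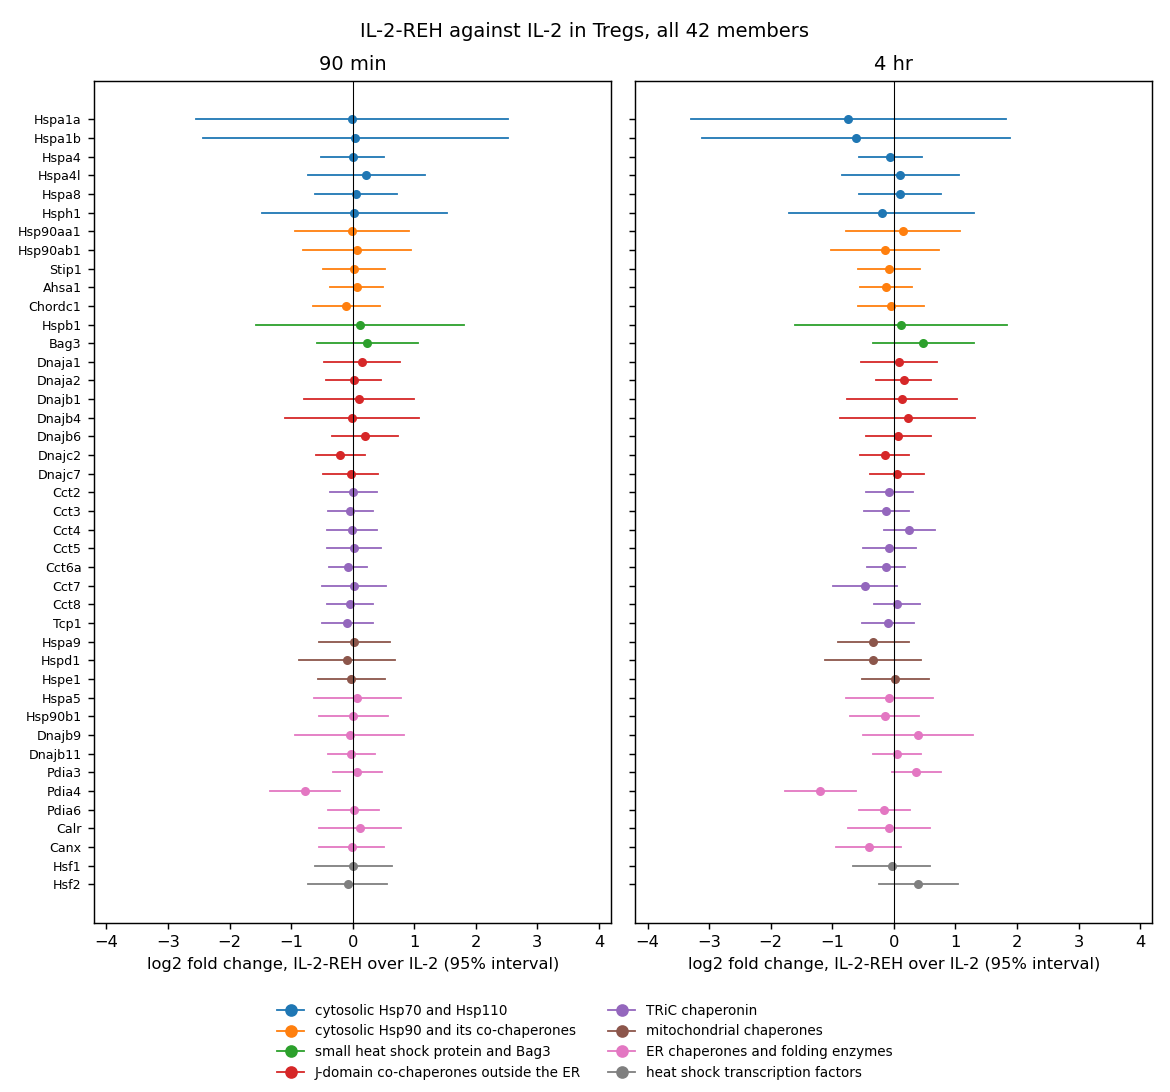
Log2 fold change of IL-2-REH over IL-2 in Tregs for all 42 members at 90 min and 4 hr. Points are edgeR estimates and lines 95% intervals, coloured by role; Pdia4, at -0.77 and -1.19, is the one member whose interval leaves out 0 at either time.

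Between 90 min and 4 hr no member was called with IL-2 (0% of all genes) or with IL-2-REH (0%), by edgeR, although 6 and 3 members had an unadjusted p under 0.05 (2551 and 2188 of 15009 genes), and DESeq2 called 1 of 42, Dnajb9, with IL-2, beside 2.55% of all genes. The direction was mostly downward in the fit over all replicates. With IL-2, 34 of 42 log2 fold changes were negative (7151 of 15009 for all genes), with a median of -0.32 against 0.033 for all genes. With IL-2-REH, 36 of 42 were negative (7108 of 15009), with a median of -0.42 against 0.038. In pairs of replicates 1, 2 and 3 the median log2 ratio of RPKM + 1 of the members was -0.28, 0.067 and -0.40 with IL-2. With IL-2-REH it was -0.29, 0.0016 and -0.26, so the median did not fall in replicate 2 with either cytokine. All expressed genes had medians of -0.19, 0.17 and 0.024 (IL-2) and -0.12, 0.18 and 0.14 (IL-2-REH). In same-numbered pairs, 16 members (IL-2) and 20 members (IL-2-REH) were lower at 4 hr in all 3 (2315 and 2186 of 10473 expressed genes), among them Hspa4, Hspa5, Dnaja2, Dnajb6 and Dnajb9. Dnajc7 was higher at 4 hr in all 3 pairs with both cytokines.

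In CD8+ T cells each group had 1 library, so values have no replicate check and no test was made. Log2 ratios of RPKM + 1 are given for the 40 members with a mean of at least 1 RPKM (Hspa1a and Hspb1 fell below). Against unstimulated cells, ratios beyond 1 in size were seen for 1 member with IL-2 at 90 min (7.24% of 10021 genes), 1 with IL-2-REH at 90 min (8.57%), 2 with IL-2 at 4 hr (4.71%) and 2 with IL-2-REH at 4 hr (6.11%). The median over all genes lay between -0.12 (IL-2-REH at 90 min) and -0.024 (IL-2-REH at 4 hr) on this scale. Dnajb9 was in all 4 counts. It was at 29.9 RPKM in unstimulated CD8+ T cells, 9.62 and 10.3 RPKM with IL-2 and IL-2-REH at 90 min, and 6.14 and 7.86 RPKM at 4 hr. The log2 ratios were -1.54, -1.46, -2.12 and -1.80, each against the same single unstimulated library. Other values moved with that library: the summed level of 8 immediate early genes was 665 RPKM in it against 139 and 112 RPKM at 90 min and 84.0 and 61.4 RPKM at 4 hr, with IL-2 and IL-2-REH, that of 2 T cell markers 558 RPKM against 286 to 348 RPKM in the other 4, that of 4 B cell markers 10.5 RPKM against 3.26 to 5.18 RPKM, and that of 2 NK cell markers 7.84 RPKM against 2.996 to 5.71 RPKM. No marker of these lists was at 0, and their part in the ratios was not tested. Dnajb4 was past the limit with IL-2 at 4 hr, at 9.50 RPKM unstimulated and 3.96 RPKM with IL-2 (log2 ratio -1.08). Hspa5 was past it with IL-2-REH at 4 hr, at 130.3 RPKM unstimulated, 79.3 RPKM with IL-2 and 55.4 RPKM with IL-2-REH (log2 ratio -1.22).

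Between the cytokines in CD8+ T cells, 1 member was past 1 at 90 min (0.868% of genes) and 1 at 4 hr (2.23%), and it was Pdia4 both times. Pdia4 was at 28.2 RPKM in unstimulated cells. It was at 42.4 RPKM with IL-2 and 18.9 RPKM with IL-2-REH at 90 min, and at 44.3 and 21.4 RPKM at 4 hr. The log2 ratio of IL-2-REH over IL-2 was -1.13 at 90 min and -1.01 at 4 hr. IL-2 was thus above and IL-2-REH below the unstimulated library. At 4 hr, 31 of 40 members were lower with IL-2-REH than with IL-2, with a median log2 ratio of -0.19 against 0.077 for all genes, of which 3827 of 10021 were lower. At 90 min, 35 of 40 were lower, as were 7065 of 10021 genes. TRiC subunits made up 7 of the 31, with Cct6a at 64.3 RPKM with IL-2 and 40.05 RPKM with IL-2-REH and Cct3 at 69.3 and 44.3 RPKM. All 3 mitochondrial chaperones were lower, with Hspd1 at 61.4 and 38.4 RPKM and Hspa9 at 48.8 and 29.8 RPKM. Each of these ratios was smaller in size than 1.

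**Figure D5:**
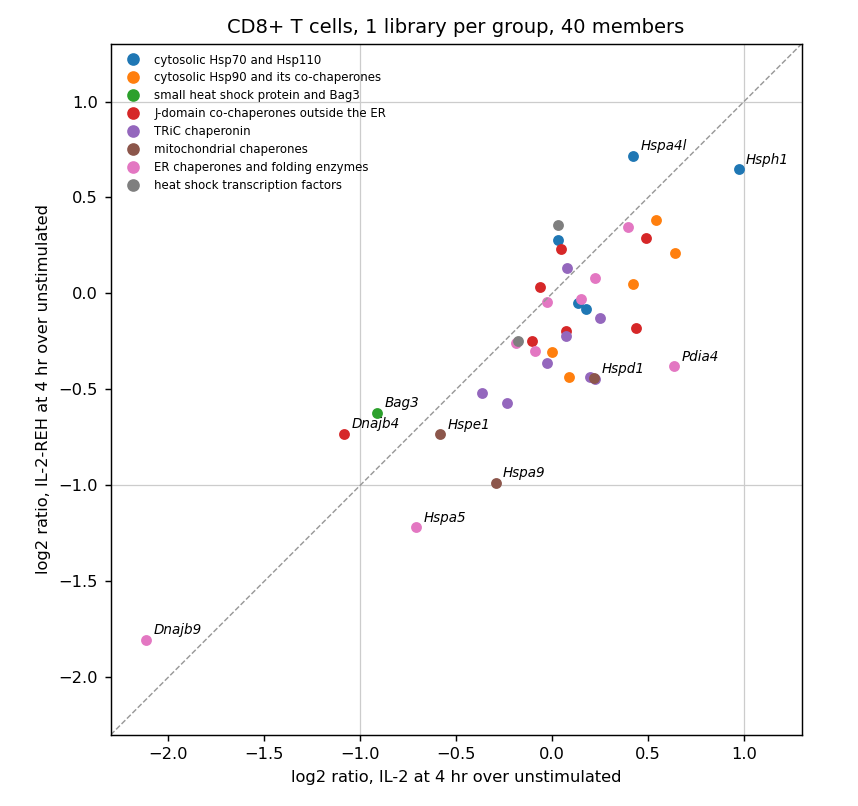
CD8+ T cells at 4 hr: log2 ratio of RPKM + 1 over unstimulated cells, with IL-2 on the horizontal and IL-2-REH on the vertical axis, 1 point per member coloured by role, grey lines at -1 and 1 and the dashed line at equal ratios. Most points lie below the dashed line, Dnajb9 is lowest with both cytokines, and Pdia4 is at 0.64 for IL-2 but -0.38 for IL-2-REH.

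Levels in the CD8+ library were set against the 3 Treg libraries of the same condition. In all 5 conditions, 10 members lay below the lowest Treg library (14.2% of 10457 genes did so): Hspa1a, Hspa1b, Hspa4, Hspa4l, Hspb1, Bag3, Dnajb4, Hspa5, Pdia6 and Calr. Hspa1a was at 0.727 to 1.15 RPKM in CD8+ T cells, and Hspb1 at 0.0153 to 0.0981 RPKM. Hspa5 was at 130.3 RPKM in unstimulated CD8+ T cells against 214, 177 and 271 RPKM in unstimulated Tregs. Cct2 was the 1 member above the highest Treg library in all 5 conditions (7.77% of genes). With 1 CD8+ library per condition and a different isolation of the cells, cell type and preparation cannot be told apart.

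Beyond the 42 members, 93 other chaperone, co-chaperone and unfolded protein response genes were examined, of which 88 were tested in Tregs. None was called in any of the 9 Treg comparisons with all libraries. An unadjusted p under 0.05 from edgeR was found for 7 with IL-2 at 90 min (2068 of 15009 genes). With IL-2-REH it was found for 6 at 90 min and 12 at 4 hr (1704 and 1998 of all genes). With the replicate block 1 was called with IL-2 at 90 min (1.83% of all genes), 1 with IL-2 at 4 hr and 2 with IL-2-REH at 4 hr, fewer than the share of all genes in each. They are named here after their values were seen. Xbp1, a transcription factor of the unfolded protein response, was higher with IL-2 at 90 min (log2 fold change 1.19, adjusted p = 0.0356 from edgeR), Dnajc15 lower with IL-2 at 4 hr (-1.08, 0.0464), and Ddit3 (CHOP) and Dnajc28 higher with IL-2-REH at 4 hr (0.74, 0.0413 and 1.02, 0.0373). Without unstimulated replicate 1, 10 and 8 of 89 were called at 90 min with IL-2 and IL-2-REH (11.2% and 8.99%, beside 12.9% and 12.1% of all genes) and 8 and 6 at 4 hr (8.99% and 6.74%, beside 8.87% and 6.93%). In CD8+ T cells 2 of 82 passed a log2 ratio of 1 in size. They were Xbp1 with IL-2 at 90 min (1.05) and Sil1, a nucleotide exchange factor of BiP, at 4 hr with IL-2 (-1.06) and IL-2-REH (-1.14). Of 10021 genes, 7.24% passed it with IL-2 at 90 min, 4.71% with IL-2 at 4 hr and 6.11% with IL-2-REH at 4 hr.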

How the data were processed

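RNA was sequenced as 50-base single-end reads from 20 libraries (15 Treg, 5 CD8+). Per the labels and the study's methods, the authors aligned reads to mm10 with TopHat2 2.1.1 and Bowtie2 2.2.6, and also used SAMtools 0.1.8 and bedtools 2.25.0. The deposited values are counts of uniquely mapped reads on exons and RPKM, for 31682 RefSeq transcripts of 23992 genes. The study names edgeR for finding differentially expressed genes. The annotation release and the use of strand are not given in the sources used here. Transcripts were not summed here. Where several shared a gene symbol, only the most heavily read of them, counting all 20 libraries together, was kept to stand for the gene.

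Treg counts were tested with edgeR 4.0.16 (R 4.3.3), with TMM normalization, the filterByExpr filter (15009 genes kept), one fit over the 15 Treg libraries, quasi-likelihood tests and Benjamini-Hochberg adjustment over all genes, with a threshold of 0.05. In the CD8+ T cells, with 1 library per group, log2 ratios of RPKM with a pseudocount of 1 were taken over genes with a mean of at least 1 RPKM, with no test. Alternatives were a replicate block, DESeq2 1.42.0, RLE normalization, no filter, limma 3.58.1 on log2(RPKM + 1), the longest transcript, another pseudocount, centring, and leaving out libraries. Leaving out single stimulated libraries, and the longest transcript for CD8+ against Treg levels, were added after the data were seen. The fits were tested on simulated data. The simulated libraries shared no deviation by replicate number, so that test does not cover this feature of the real libraries.

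Same-numbered Treg libraries deviated together: all 30 same-number pairs had a correlation of deviations from group means above 0.1 (0.121 to 0.839, mean 0.54, against a mean of -0.26 for different numbers), so that the numbers were taken to pair the samples. Deviations from a group mean cancel within the group, so positive correlations of same numbers force negative ones for different numbers. The labels do not say what a number shares. The main test did not use this pairing. Values with the replicate block are given where they change a call.

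The members and gene lists were chosen with earlier results of these data known. All members are described by role. Values, in every library, in some groups or as a range, are given for up to 3 members per role with the smallest adjusted p over the Treg comparisons. They are also given for the most abundant member of a role and for Hspa1a, Hspa1b, Dnajb1, Hsph1, Hspb1 and Bag3, and in CD8+ T cells for members past a log2 ratio of 1. Promoters are RefSeq sequences on GRCm38.p6, matched by symbol for 35 of 42 members, and 41 matched a GENCODE transcript.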

Additional observations from a re-analysis of the deposited data

Results flagged for a closer look

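In comparisons with unstimulated cells, the single CD8+ library went the opposite way from all 3 same-numbered Treg pairs for 0 to 4 of 40 members, as it did for 3.97% to 8.65% of 9669 genes measured in both, and none of these differences was tested. With IL-2 at 90 min the members were Dnaja1, with a log2 ratio of RPKM + 1 of 0.58 in CD8+ T cells and -0.22, -0.098 and -0.95 in Treg replicates 1, 2 and 3, and Canx (0.12 in CD8+ T cells). With IL-2 at 4 hr they were Dnaja1 (0.49 in CD8+ T cells), Pdia3 (0.15), Dnajb1, with 0.070 in CD8+ T cells and -0.65, -0.54 and -2.75 in Tregs, where the last value rests on the high unstimulated replicate 3, and Hspd1, with 0.22 in CD8+ T cells and -0.27, -0.41 and -1.34 in Tregs. With IL-2-REH at 4 hr they were Dnaja1 (0.29 in CD8+ T cells), Dnajb11 (-0.30) and Pdia4, with -0.38 in CD8+ T cells and 2.01, 0.53 and 0.47 in Tregs.

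Between the cytokines the same was seen for 8 of 40 members at 90 min (15.3% of genes) and 4 of 40 at 4 hr (11.4%), again untested. All 12 were lower with IL-2-REH in CD8+ T cells and higher in the 3 Treg pairs. The CD8+ log2 ratios of IL-2-REH over IL-2 at 90 min were -0.014 for Hspa4l, -0.13 for Dnaja1, -0.17 for Dnajb1, -0.018 for Dnajb6, -0.14 for Hspa9, -0.30 for Hspa5, -0.15 for Pdia3 and -0.083 for Calr. At 4 hr they were -0.20 for Dnaja1, -0.14 for Dnaja2, -0.21 for Dnajb11 and -0.18 for Pdia3.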

How the results depend on the processing

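Counts of called members moved as follows, with the share of all genes called under the same setting. With the replicate block they were 5 (IL-2 at 4 hr, against 3; 6.92% of genes) and 3 (IL-2-REH at 4 hr, against 0; 3.03%), and the block is given in the text where it changed a call. DESeq2 called 3 with IL-2 at 90 min (against 1; 3.68% of genes), 7 with IL-2 at 4 hr (6.64%), 5 with IL-2-REH at 4 hr (3.76%), 1 between the cytokines at 4 hr (0.386%) and 1 between the times with IL-2 (2.55%). Leaving out libraries or whole replicates gave 0 to 9 with IL-2 (0% to 17.3% of genes) and 0 to 7 with IL-2-REH (0% to 15.7%) at 90 min, and 0 to 8 (0.0197% to 13.4%) and 0 to 5 (0% to 10.7%) at 4 hr. Without replicate 2 or 3 as a whole, Dnajb9 (adjusted p = 0.254 and 0.269 from edgeR) and Bag3 (0.306 and 0.609) lost their calls with IL-2 at 4 hr. In CD8+ T cells a pseudocount of 0.1 put 2, 2 and 4 members past a log2 ratio of 1 with IL-2 at 90 min, IL-2-REH at 90 min and IL-2 at 4 hr (against 1, 1 and 2), beside 12.1%, 13.6% and 7.57% of genes, and centring put 2 and 2 past it at 90 min, beside 7.07% and 7.94%. The cause of these moves was not tested. Over 21 log2 fold changes and 24 settings, 453 of 504 values kept their direction and side of the threshold, 27 lost a call, 24 gained one and 0 changed direction. The only members called in the main fit were Pdia4 (at 90 min and 4 hr), Dnajb9 and Bag3, all with IL-2. Most of the 504 values thus had no call to lose, and the 453 do not measure how stable the calls were. With 3 libraries per group and no use of the replicate number, the median half-width of the 95% interval in the main fit was 0.55 (log2 scale). This limits the differences that could be called.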

Other observations

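Reads on Hspa1b and Hspa1a, whose promoters are nearly identical and whose transcripts share most of their sequence, stood in a ratio between 0.873 and 1.44 (median 1.16) over the 20 libraries, while the RPKM of Hspa1a ranged from 0.727 to 400.2.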
